A study of Homo sapiens with 12 samples.

Results

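The comparison set extracellular vesicles (EVs) against the cells that released them in the control line of a study of MDA-MB-231 cells. All 2588 mature human miRNAs of the deposited table were members, and 4 of the 12 libraries of the series were compared: 2 of control EVs and 2 of control cells. MDA-MB-231 is an established human triple-negative breast cancer line, and the control line carried an empty vector, so neither of its fractions was untransduced. Per the labels' protocols, the cells were grown with 10% fetal bovine serum and then kept for 24 h without serum, with 1% bovine serum albumin. EVs came from the conditioned medium, cleared at 500 g and 10000 g and pelleted at 110000 g for 70 min, and the producing cells were collected at the same time. The fit also used EVs and cells, 2 libraries each, of a line whose RAB27A, a GTPase of vesicle release, was targeted by an shRNA, and of a line with CRISPR editing of the miR-122 gene. RNA was taken up with Trizol from cells and with Trizol LS from EVs, the adapters were ligated in a way that needs a 5′ phosphate, and RNAs of 17 to 52 nt were kept.

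A miRNA is cut from a hairpin precursor that can give a mature RNA from each arm, and its seed, bases 2 to 8, pairs with target mRNAs while the RNA sits in an Argonaute protein. EVs are membrane-bound particles that cells shed from the plasma membrane or release from endosomes, and they carry a sample of the cell's small RNAs to other cells. A pellet obtained by ultracentrifugation can also hold lipoproteins and ribonucleoprotein particles. The design asks which miRNAs of a pellet stand above or below their share in the producing cells.

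The sequences below are the mature miRNAs on which the results turn, with the seed in capitals. They come from RefSeq annotation of GRCh38.p14, matched by name, with 506 of the 574 tested miRNAs found there. The first set stood far higher in EVs. It holds miR-223-3p of myeloid cells (chromosome X, plus strand), miR-142-5p of blood cells (17, minus), miR-144-3p of red cell precursors (17, minus), miR-143-3p of smooth muscle and fibroblasts (5, plus), miR-122-5p of hepatocytes (18, plus), and miR-127-3p, miR-379-5p and miR-411-5p of the imprinted region 14q32 (14, plus).
miR-223-3p: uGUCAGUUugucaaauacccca
miR-142-5p: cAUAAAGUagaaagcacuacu
miR-144-3p: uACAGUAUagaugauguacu
miR-143-3p: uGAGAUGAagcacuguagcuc
miR-122-5p: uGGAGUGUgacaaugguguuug
miR-127-3p: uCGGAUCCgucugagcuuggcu
miR-379-5p: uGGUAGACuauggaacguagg
miR-411-5p: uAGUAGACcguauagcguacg

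The second set stood lower in EVs. It holds miR-4521 (17, plus), miR-7974 (19, minus) and miR-424-5p of the miR-15/16 seed family (X, minus).
miR-4521: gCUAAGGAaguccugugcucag
miR-7974: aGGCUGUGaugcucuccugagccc
miR-424-5p: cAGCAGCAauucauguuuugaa

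The third set shows relatives that share a seed and differed in direction: miR-99a-5p (21, plus) beside miR-100-5p (11, minus) and miR-99b-5p (19, plus), and miR-23a-5p (19, minus) beside miR-23b-5p (9, plus).
miR-99a-5p: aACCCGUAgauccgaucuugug
miR-100-5p: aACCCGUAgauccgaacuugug
miR-99b-5p: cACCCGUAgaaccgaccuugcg
miR-23a-5p: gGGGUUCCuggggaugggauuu
miR-23b-5p: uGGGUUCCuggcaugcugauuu

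Control EV libraries held 2387336 and 2596391 miRNA counts, and control cell libraries held 11840597 and 11066570. Levels are given as CPM, the count scaled to a library total of 1000000 miRNA counts, so 1 count was worth 0.419 and 0.385 CPM in EVs and 0.0845 and 0.0904 CPM in cells. Such shares say nothing of the amount of RNA per vesicle or per cell, and more copies per particle cannot be told apart from more particles that hold the miRNA. Replicates correlated at 0.994 in EVs and 0.998 in cells (Pearson, log2 of CPM + 1, across 574 miRNAs, which are not independent replicates), and in both groups they differed by more than counting noise. Nothing in the labels says that replicates came from separate cultures. The p-values therefore measure the spread between these libraries alone, which may be technical.

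Most of the abundant miRNAs took a like share of both fractions. The 10 most abundant miRNAs made up 70.1% and 70.0% of EV counts, against 72.3% and 71.9% of cell counts, and 9 of the 10 were the same. Of the 50 leading miRNAs of each fraction, 46 were shared. Among the 50 most abundant in cells, 48 lay within 2-fold, with log2 fold changes of EVs over cells from −1.37 to 0.91. Over all 574 tested miRNAs, 378 (65.9%) lay within 2-fold, and the mean levels of the fractions correlated at 0.857 across miRNAs (Pearson; Spearman 0.752).

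At the top of the order stood miR-100-5p, known for restraining mTOR signalling, with 27.7% and 29% of EV counts, against 33.5% and 31.7% of cell counts. Its EV share was the lower in every library (log2 fold change −0.34, SE 0.11, adjusted p = 0.00919, edgeR's quasi-likelihood test with Benjamini-Hochberg adjustment over 574 miRNAs, as for each adjusted p here). That call was lost with total counts as scaling (−0.20), with an offset for GC content (−0.27) and without any 1 of the 4 control libraries (−0.24 and −0.38 without EV replicates 1 and 2, −0.33 and −0.36 without cell replicates 1 and 2). miR-21-5p, an oncogenic miRNA, had 123369 and 112573 CPM in EVs, against 113447 and 119422 CPM in cells, and the ranges overlapped (−0.12, SE 0.11, adjusted p = 0.392). miR-221-3p, which represses the cell cycle inhibitor p27, had 74382 and 76319 CPM in EVs, against 94510.4 and 99315 CPM in cells, with no overlap (−0.50, SE 0.11, adjusted p = 0.00017; without control EV replicate 1, −0.41 and adjusted p = 0.059). let-7i-5p (−0.01), miR-27b-3p (0.03) and miR-26a-5p (0.25, adjusted p = 0.0704) did not pass.

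Across all miRNAs, 308 of 574 (53.7%) passed a false discovery rate of 0.05. Of these, 177 (30.8% of those tested) were higher in EVs and 131 (22.8%) were lower. Large differences lay mostly on the EV side: 88 miRNAs (15.3%) were at least 4-fold higher and 9 (1.57%) at least 4-fold lower. The scaling matters for small changes: without TMM factors, on total counts, the median log2 fold change of all tested miRNAs was 0.16 in place of 0.02, and the calls split into 190 higher and 95 lower, so 66.7% in place of 57.5% of them were higher. With no filter on low counts 43.5% of calls were higher, and without single libraries of the other lines as little as 47.1%. Among calls of at least 2 on the log2 scale, 88 of 97 were kept in every alternative that tested them, and among calls under 0.6 only 8 of 63 were.

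**Figure D1:**
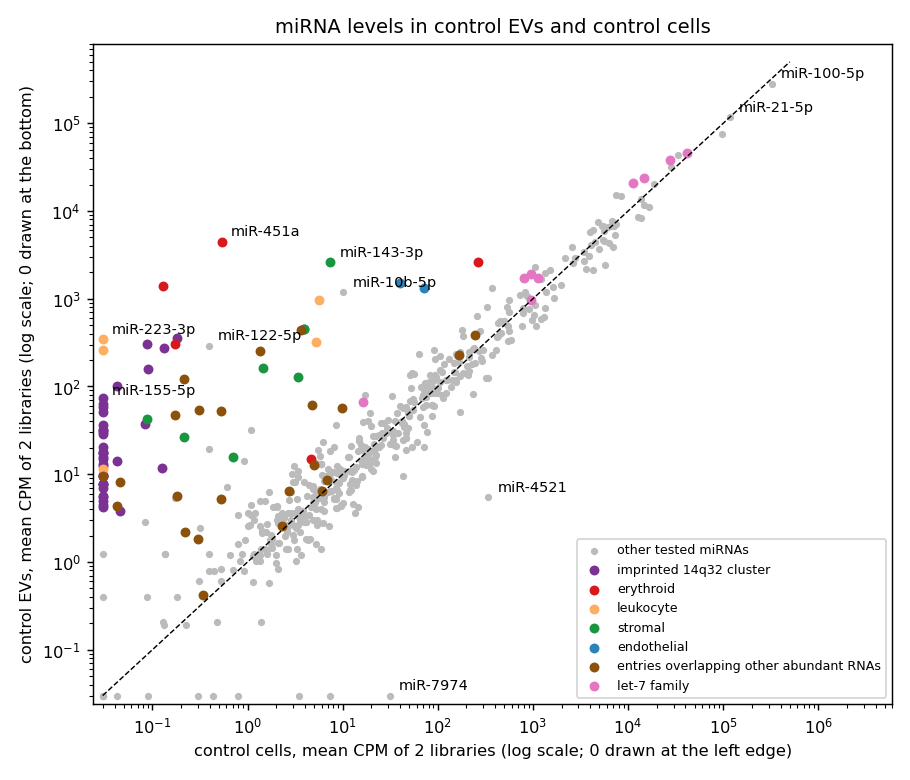
Mean CPM of each tested miRNA in control EVs (vertical axis, log scale) and control cells (horizontal axis, log scale), 2 libraries each, with listed groups coloured and the dashed line marking equal levels. Abundant miRNAs such as miR-100-5p and miR-21-5p lie along the line, while members of the 14q32, erythroid, leukocyte and stromal lists lie far above it and miR-4521 and miR-7974 lie below it.

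Of the 88 miRNAs at least 4-fold higher in EVs, 57 belonged to 5 lists: 38 to the imprinted cluster at 14q32 and the rest to lists of erythroid, leukocyte, stromal and endothelial miRNAs. The 114 entries of those lists together made up 2.03% and 1.83% of EV counts, against 0.0423% and 0.0408% of cell counts. Without them, 516 tested miRNAs remained, with 119 higher, 131 lower, 31 at least 4-fold higher and 9 at least 4-fold lower. The fractions then correlated at 0.945 (Pearson, with Spearman at 0.901). The lists were chosen with earlier results of these data known, so a closer match without them is no support. Many listed miRNAs, among them all 38 of the 14q32 cluster, entered the test only through EV libraries or libraries of the other lines. Their being called is therefore no count in support, and the levels are given first.

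The erythroid list holds both arms of miR-144, miR-451a, which sits beside it in the genome and matures without Dicer, and both arms of miR-486. It summed to 9515 and 8107 CPM in EVs, against 278 and 263 CPM in cells. miR-451a had 4992 and 3976 CPM in EVs, against 0.253 and 0.813 CPM in cells, where it rested on 3 and 9 counts. It was far higher in both EV libraries (log2 fold change 12.85, SE 0.77, adjusted p = 5.38e-06). miR-144-3p had 1595 and 1189 CPM in EVs, against 0.169 and 0.0904 CPM in cells. With 3 counts over both cell libraries, its pooled ratio was 10564, with a 95% counting interval of 3613 to 51239. miR-486-5p differed from these in being present in the cells, with 2560.2 and 2671 CPM in EVs against 274 and 257 CPM in cells (3.16, SE 0.13, adjusted p = 2.45e-27). All 5 entries were called higher, beside 30.8% over all tested miRNAs. Their median log2 fold change was 10.43, against 0.02 over all tested miRNAs.

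The leukocyte list summed to 2013 and 1789 CPM in EVs, against 10.4 and 11.5 CPM in cells. miR-223-3p, a regulator of granulocyte maturation, had 344 and 342 CPM in EVs and no count in either cell library, which makes it at least 2620-fold higher (the limit is 3 counts over both cell libraries, 0.131 CPM). miR-150-5p, a lymphocyte miRNA that targets MYB, had 255 and 269 CPM in EVs and no count in cells, at least 2003-fold higher. The remaining hairpin was not absent from the cells. miR-142-5p, expressed throughout the blood lineage, had 1048 and 874 CPM in EVs, against 5.66 and 5.60 CPM in cells (7.27, SE 0.21, adjusted p = 5.08e-34), and miR-142-3p was higher by 5.79 (SE 0.20). Of 6 entries 5 were tested and all 5 were called higher, beside 30.8% over all tested miRNAs. Their median was 8.66, or 7.27 with miRNAs at 0 set to their bounds.

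The stromal list summed to 3849 and 3934 CPM in EVs, against 20.2 and 22 CPM in cells. miR-143-3p, which with miR-145 sets the contractile state of smooth muscle, led it with 2543 and 2674 CPM in EVs, against 6.42 and 8.40 CPM in cells (8.32, SE 0.21, adjusted p = 8.98e-30). miR-145-5p, of the same transcript, had 33.5 and 51.2 CPM in EVs and 1 count in each cell library, a pooled ratio of 490 with a counting interval of 134 to 4068. The mature sequence listed as both miR-199a-3p and miR-199b-3p, known from fibroblasts, had 471 and 436 CPM in EVs, against 3.97 and 3.89 CPM in cells (6.70, SE 0.20), and its 2 entries share their counts. Of 10 entries, 8 were tested and all 8 were called higher, with a median of 6.67, beside 30.8% higher over all tested miRNAs. The endothelial list consists of the arms of miR-126, which lies in an intron of EGFL7. miR-126-5p had 1603 and 1392 CPM in EVs, against 40.5 and 38.7 CPM in cells (5.10, SE 0.16), and miR-126-3p was higher by 4.04 (SE 0.14).

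The 14q32 cluster lies in the imprinted DLK1-DIO3 region and is transcribed from the maternal chromosome. Its annotated members span 214 kb of chromosome 14 (chr14:100852409-101066786, GRCh38.p14). The 91 entries together had 4702 and 4826 counts in EVs, against 10 and 11 counts in cells, or 1970 and 1859 CPM against 0.845 and 0.994 CPM. In EVs 67 of the 91 entries had a count, and in cells 11 did, although the cell libraries were the deeper. No entry exceeded 4 counts over both cell libraries.

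miR-411-5p led the cluster with 326 and 384 CPM in EVs, against 0 and 0.361 CPM in cells (10.65, SE 0.41, adjusted p = 7.37e-16). miR-127-3p, which lies within the antisense transcript of RTL1, had 303 and 302 CPM in EVs and 1 count in each cell library, a pooled ratio of 3466 with a counting interval of 958 to 28643. miR-379-5p, the name-giving member of a large group of hairpins in the cluster, had 269 and 274 CPM in EVs, against 0.0845 and 0.181 CPM in cells, a ratio of 2075 with an interval of 708 to 10072. miR-494-3p followed with 174 and 142 CPM in EVs, against 0 and 0.181 CPM in cells. The EV libraries lay above the cell libraries for each of these 4, without overlap. Of the 91 entries 38 passed the filter, 29 of them with no count in cells, and their EV means ran from 3.79 to 355 CPM with a median of 16.4 CPM. All 38 were called higher, beside 30.8% over all tested miRNAs. None of them entered the test through the control cells, so that count is no support. Their median log2 fold change was 9.03, or 7.90 with only those at 0 that had enough EV counts set to their bounds. The other entries at 0 kept fitted values that depend on the prior count, so neither median is a bound. Among the 53 entries that did not pass, none had more than 19 counts over both EV libraries.

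**Figure D2:**
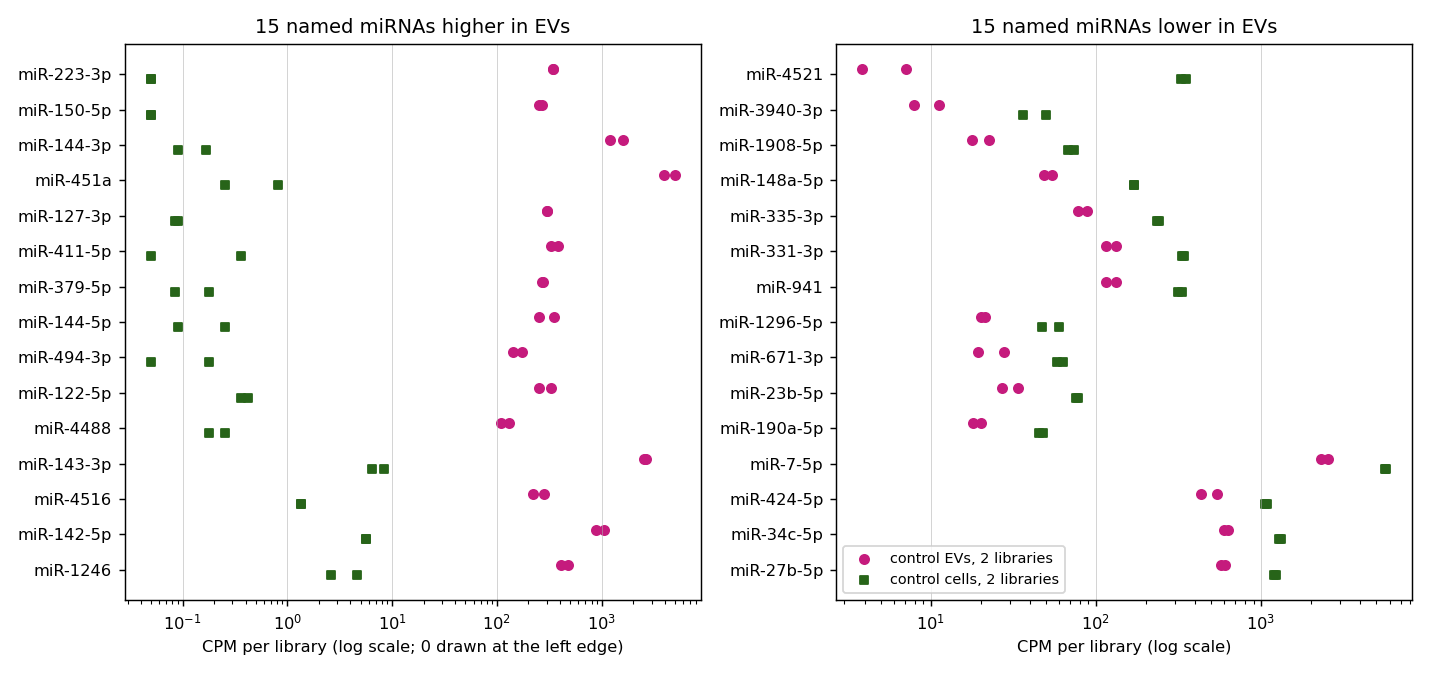
CPM in each library (log scale) of the 15 miRNAs with the largest rise and the 15 with the largest fall in EVs among well-detected ones, with 2 circles for control EVs and 2 squares for control cells. The fractions do not overlap for any of the 30, as the choice requires, and on the right panel miR-4521 shows the widest gap, with 7.12 and 3.85 CPM in EVs against 350.5 and 329 CPM in cells.

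The counts for the next lists stand beside 30.8% higher and 22.8% lower over all tested miRNAs. In the liver list of 8 entries, 3 were tested. miR-122-5p, which makes up much of the miRNA of hepatocytes, had 331 and 251 CPM in EVs, against 0.422 and 0.361 CPM in cells, where it rested on 5 and 4 counts (9.30, SE 0.28, adjusted p = 6.82e-33). miR-192-5p and miR-194-5p, found in liver, gut and kidney, were higher by 0.47 (SE 0.13) and 0.51 (SE 0.14), with cell levels of 111 to 158 CPM, and both calls were lost in some alternatives. Of 6 muscle entries only miR-1-3p was tested, with 39.4 and 23.9 CPM in EVs against 1.52 and 0.633 CPM in cells (4.68, SE 0.36). The neuronal miR-9-5p fell by 0.81 (SE 0.19) and miR-128-3p by 0.49 (SE 0.15), the second of which was not called without control EV replicate 1, while miR-9-3p did not pass and both arms of miR-124 had no count in the 4 libraries. Of the miR-200 family, which maintains the epithelial state, 1 of 6 tested members was higher, a call lost without control EV replicate 1, and none was lower, with summed levels of 205 and 182.2 CPM in EVs against 166 and 160 CPM in cells. The C19MC list of the placental cluster had 6 higher of 11 tested, but those 6 entries carry the counts of 1 shared sequence, and without control cell replicate 2 its adjusted p was 0.14.

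Outside the 5 lists and a list of entries that overlap other RNAs, 16 miRNAs were at least 4-fold higher in EVs, miR-122-5p and miR-1-3p among them. miR-10b-5p, encoded in the HOXD cluster, had 1240.3 and 1131 CPM in EVs, against 10.9 and 9.49 CPM in cells (6.72, SE 0.19, adjusted p = 5.08e-34). Its relative miR-10a-5p of the HOXB cluster fell by 0.58 (SE 0.11), with 5234 and 5394 CPM in EVs against 7417 and 6965 CPM in cells. miR-155-5p, induced in activated immune cells, had 71.6 and 68.6 CPM in EVs and no count in cells, at least 535-fold higher. miR-146a-5p, an inhibitor of NF-kappaB signalling listed with it, was abundant in both fractions, with 7567 and 7272 CPM in EVs against 4790.3 and 4749 CPM in cells (0.50, SE 0.11). miR-363-3p, from the X-linked relative of the miR-17-92 cluster, was higher by 3.75 (SE 0.35), and miR-139-5p by 2.08 (SE 0.20) with 76.2 and 83.2 CPM in EVs against 15.4 and 18.8 CPM in cells, both picked after their values were seen.

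A further 15 of the 88 miRNAs belonged to that list of entries whose sequence overlaps, or has been reported to overlap, other abundant RNAs such as ribosomal, transfer and small nuclear RNA. Of 23 tested, 19 were higher and none lower, with a median of 3.11. Under the alternatives, which tested as few as 15 of them, 12 to 19 were higher and none was lower. Over all tested miRNAs 30.8% were higher and 22.8% lower, with a median of 0.02. The list summed to 1793 and 1778 CPM in EVs, against 497 and 427 CPM in cells. miR-1246 had 476 and 412 CPM in EVs, against 2.62 and 4.61 CPM in cells (6.80, SE 0.20, adjusted p = 3.29e-33), and its 19 bases match the U2 small nuclear RNA gene RNU2-1 exactly. miR-4485-3p, whose sequence lies in the mitochondrial ribosomal RNA MT-RNR2, was higher by 2.37 (SE 0.21), and miR-4284, within the mitochondrial transfer RNA gene MT-TF, by 1.20 (SE 0.30). miR-4488 (8.81, SE 0.32), miR-4516 (7.37, SE 0.27) and miR-7704 (7.20, SE 0.34) were also higher, but were not among the exact matches found. Where a sequence matches exactly, reads of the entry cannot be told from fragments of the other RNA. Over all 506 tested sequences, 7 matched a small RNA transcript of GENCODE v29 exactly, 3 of 157 higher ones and 0 of 119 lower ones.

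miRNAs lower in EVs were fewer at large folds. miR-4521 had 7.12 and 3.85 CPM in EVs, against 350.5 and 329 CPM in cells (−6.10, SE 0.23, adjusted p = 1.36e-29), and was lower in both EV libraries. miR-7974 had no count in either EV library and 365 and 350 counts in the cell libraries, at least 51.9-fold lower, and miR-4517 (at least 12.3-fold lower) and miR-573 (at least 5.66-fold lower) had none in EVs either. The last 3 were picked after their values were seen. These limits are set by 3 counts over both EV libraries, or 0.602 CPM. miR-3940-3p had 7.96 and 11.2 CPM in EVs, against 50.2 and 36.1 CPM in cells (−2.30, SE 0.25). The other named miRNAs lower in EVs changed by less than 4-fold, among them miR-1908-5p (−1.95, SE 0.21), miR-148a-5p (−1.86, SE 0.17), miR-335-3p (−1.65, SE 0.16), miR-331-3p (−1.59, SE 0.15) and miR-941 (−1.52, SE 0.16).

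Some of the abundant cell miRNAs also fell. miR-7-5p, which represses EGFR, had 2547 and 2292 CPM in EVs, against 5731 and 5631 CPM in cells (−1.37, SE 0.13, adjusted p = 9.71e-14). miR-34c-5p, induced by p53, had 631 and 593 CPM in EVs, against 1277 and 1329 CPM in cells (−1.23, SE 0.12). Of the 7 tested members of the miR-34 and miR-449 family 3 were lower and none higher, against 22.8% lower and 30.8% higher over all tested miRNAs. The EV libraries lay below the cell libraries for miR-7-5p and miR-34c-5p. These 2 calls and those of the preceding paragraph for miR-4521, miR-7974, miR-4517 and miR-573 were kept in every alternative that tested them.

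Families of abundant miRNAs shifted by small amounts. The let-7 family, which restrains growth and stemness genes such as HMGA2 and LIN28, summed to 138519 and 129975 CPM in EVs, against 96466 and 101770 CPM in cells. Of 9 tested members 7 were higher and none lower, with a median of 0.52. Over all tested miRNAs 30.8% were higher and 22.8% lower, with a median of 0.02. let-7g-5p had 21546 and 19679 CPM in EVs, against 10345 and 12111 CPM in cells (0.74, SE 0.12, adjusted p = 5.99e-07), and let-7d-5p (0.94, SE 0.12) and let-7c-5p (1.88, SE 0.18) were higher as well. let-7i-5p (−0.01) and let-7e-5p (−0.13) did not pass. Under the alternatives between 4 and 7 of the 9 were higher and up to 2 were lower, and with no filter on low counts the calls of let-7a-5p, let-7b-5p and let-7f-5p were lost.

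The miR-29 family, which represses collagen genes, split by member. miR-29b-3p had 886 and 738 CPM in EVs, against 321 and 336 CPM in cells (1.17, SE 0.13, adjusted p = 6.14e-11), and miR-29c-3p was higher by 1.26 (SE 0.16), while miR-29a-3p, with 21292 and 19798 CPM in EVs against 18263 and 19096 CPM in cells, did not pass (adjusted p = 1, SE 0.11). In the miR-26 family miR-26b-5p had 16473 and 14281 CPM in EVs, against 6931 and 7939 CPM in cells (0.91, SE 0.12, adjusted p = 4.22e-09). miR-26a-5p, which differs from it at 2 positions counted from the 5′ end (C11U and C21U, miR-26a-5p first), was at 0.25 (SE 0.12). In the miR-320 family, which is cut without Drosha, miR-320a (0.99, SE 0.11), miR-320b (1.16, SE 0.15) and miR-320c (1.96, SE 0.22) were higher, and miR-484, made by the same route, fell by 0.91 (SE 0.12).

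Of 11 tested entries of the miR-15/16 family, which represses cyclins and BCL2, 6 were lower and 1 higher, with a median of −0.32. Over all tested miRNAs 22.8% were lower and 30.8% higher. miR-424-5p had 542 and 431 CPM in EVs, against 1059.8 and 1089 CPM in cells (−1.28, SE 0.14, adjusted p = 9.23e-12), and miR-15a-5p fell by 0.79 (SE 0.13). The most abundant member, miR-16-5p, did not pass (−0.20, SE 0.12). The 6 tested 5p sequences with its seed, AGCAGCA, all lay below 0, and 4 of them were called lower. Of 21 tested members of the growth-promoting miR-17-92 clusters 10 were lower and 5 higher, the higher ones below the share over all tested miRNAs. miR-19a-3p (−0.87, SE 0.14), miR-19b-3p (−0.83, SE 0.13), miR-17-5p (−0.60, SE 0.11) and miR-20a-5p (−0.50, SE 0.11) were among the lower ones, and miR-92a-3p (−0.16) and miR-93-5p (−0.07) did not pass. Without control EV replicate 1 the lower members numbered 3 in the miR-15/16 family and 7 in the miR-17-92 clusters. Both miR-125 relatives fell, miR-125a-5p by 0.99 (SE 0.13) and miR-125b-5p by 0.73 (SE 0.11).

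In all, 7 further families had medians between −0.43 and 0.23, against 0.02 over all tested miRNAs, of which 30.8% were higher and 22.8% lower. Counts of higher and lower members were 2 and 4 of 11 for the miR-23/24/27 clusters, 1 and 4 of 11 for miR-30, 2 and 2 of 9 for miR-181, and 2 and 3 of 8 for miR-130, miR-301 and miR-454. They were 0 and 3 of 5 for miR-148 and miR-152, 0 and 2 of 5 for the miR-183 cluster, and 1 and 2 of 6 for miR-374, miR-545 and miR-421. Without control EV replicate 1 the lower members numbered 2 for miR-30, 0 for miR-181, 2 for miR-130, miR-301 and miR-454, 2 for miR-148 and miR-152, 0 for the miR-183 cluster and 1 for the miR-374 list. The higher ones then numbered 1 each for miR-130, miR-301 and miR-454 and for miR-148 and miR-152. Neither arm of miR-21 passed.

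**Figure D3:**
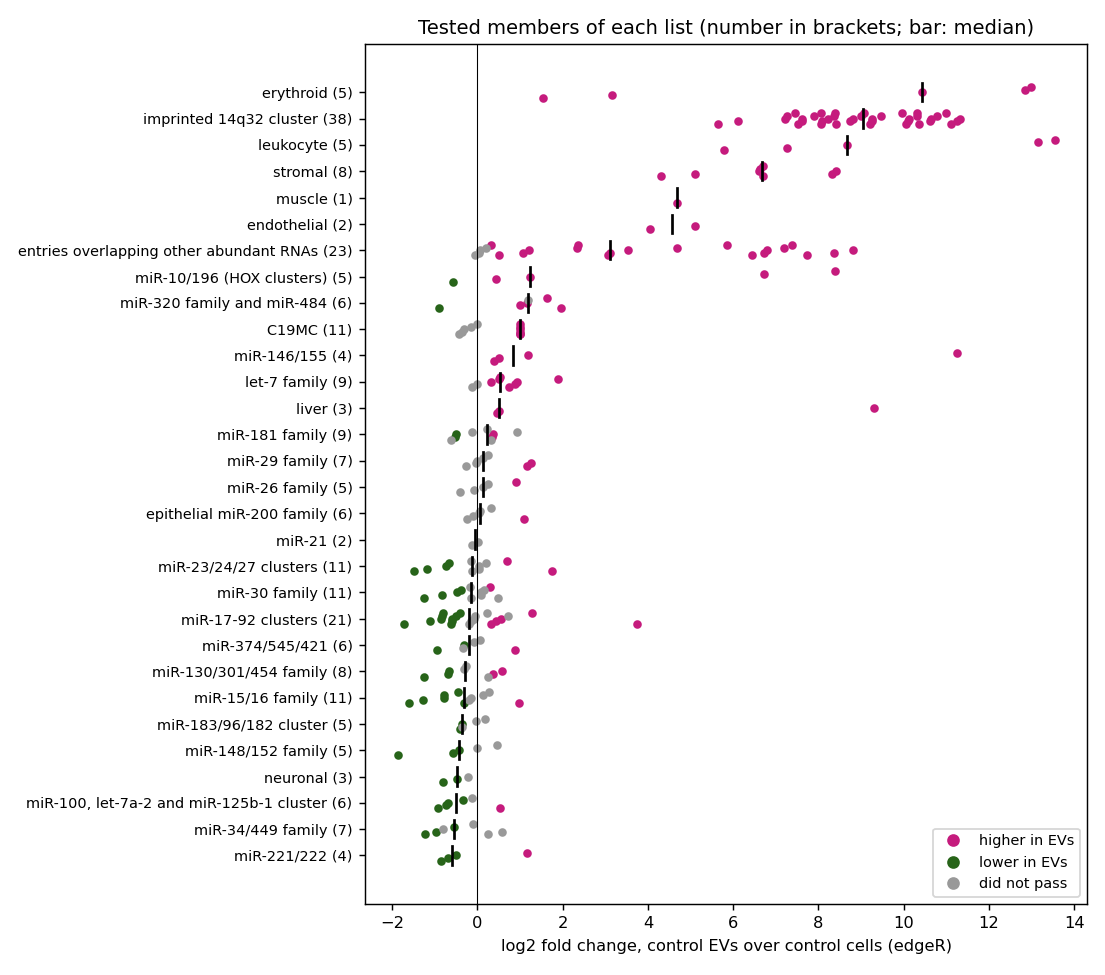
Fitted log2 fold change of control EVs over control cells (horizontal axis) for the tested members of 30 lists, 1 point a miRNA, coloured by whether it passed the test, with a bar at each list's median. The erythroid, 14q32, leukocyte and stromal medians lie between 6.67 and 10.43 and most families of abundant miRNAs lie within 1 of 0, and fitted values of miRNAs with no count in cells depend on the prior count.

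Relatives with the same seed did not always move together. Among 52 seeds shared by at least 2 tested sequences, 20 had only higher calls, 13 only lower calls, 7 had both and 12 had none. miR-99a-5p had 1323 and 1357 CPM in EVs, against 373 and 361 CPM in cells (1.73, SE 0.12, adjusted p = 2.64e-18). miR-99b-5p, of the same seed ACCCGUA, had 7614 and 9079.9 CPM in EVs, against 14112 and 13414 CPM in cells (−0.86, SE 0.12, adjusted p = 9.99e-09), and miR-100-5p was lower as well. miR-99a-5p differs from miR-100-5p at a single position (A16U, miR-100-5p first), and reads of these relatives cannot be told apart where that base is misread. miR-23a-5p had 216 and 256 CPM in EVs, against 70.9 and 56.7 CPM in cells (1.75, SE 0.16, adjusted p = 5.33e-14), and miR-23b-5p, of the same seed GGGUUCC, had 33.9 and 27 CPM in EVs, against 76.3 and 78.1 CPM in cells (−1.48, SE 0.18, adjusted p = 7.95e-10). The calls of miR-99a-5p, miR-99b-5p, miR-23a-5p and miR-23b-5p were kept in every alternative, while that of miR-100-5p was not. The first 3 of these miRNAs were picked after their values were seen.

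Both arms were tested for 143 hairpins. The more abundant arm was taken from cells of the other lines. In 70 pairs 1 arm was called and the other was not, and in 29 neither was. Both arms were higher in 22 hairpins, both lower in 9 and opposite in 13. Taken alone, the more abundant arm was higher in 46 of the 143 pairs and lower in 45. The less abundant arm was higher in 37 and lower in 30. Whether like or opposite calls exceeded what these shares give was not tested. Of the 22, all but 4 hold an arm of the 5 lists high in EVs, many of which entered the test only through libraries other than the control cells, so that count is no support for shared change. The log2 change of the less abundant arm minus that of the other had a median of −0.13, and it lay above it in 65 pairs and below it in 78.

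The clearest opposite pair among abundant miRNAs was miR-222. Its 5p arm had 586 and 681 CPM in EVs, against 257 and 257 CPM in cells (1.16, SE 0.13, adjusted p = 1.2e-10), whereas the 3p arm had 8178 and 8962 CPM in EVs, against 11974 and 13173 CPM in cells (−0.69, SE 0.12, adjusted p = 1.57e-06). miR-132 went the other way, with its 3p arm higher by 1.27 (SE 0.16) and its 5p arm at 11.7 and 11.2 CPM in EVs against 18.9 and 20.7 CPM in cells (−0.93, SE 0.25, adjusted p = 0.00124). miR-1226 showed the widest gap, 3.37 (SE 0.49) for the 5p arm and −1.60 (SE 0.41) for the 3p arm, at levels of at most 8.09 CPM, and the call of its 3p arm was lost without control EV replicate 1 (adjusted p = 0.0788). The other 10 opposite pairs included miR-331, miR-3613, miR-340 and miR-99b, and calls on at least 1 arm of each of these 4 were lost in some alternatives. All pairs but that of miR-222 were picked after their values were seen.

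**Figure D4:**
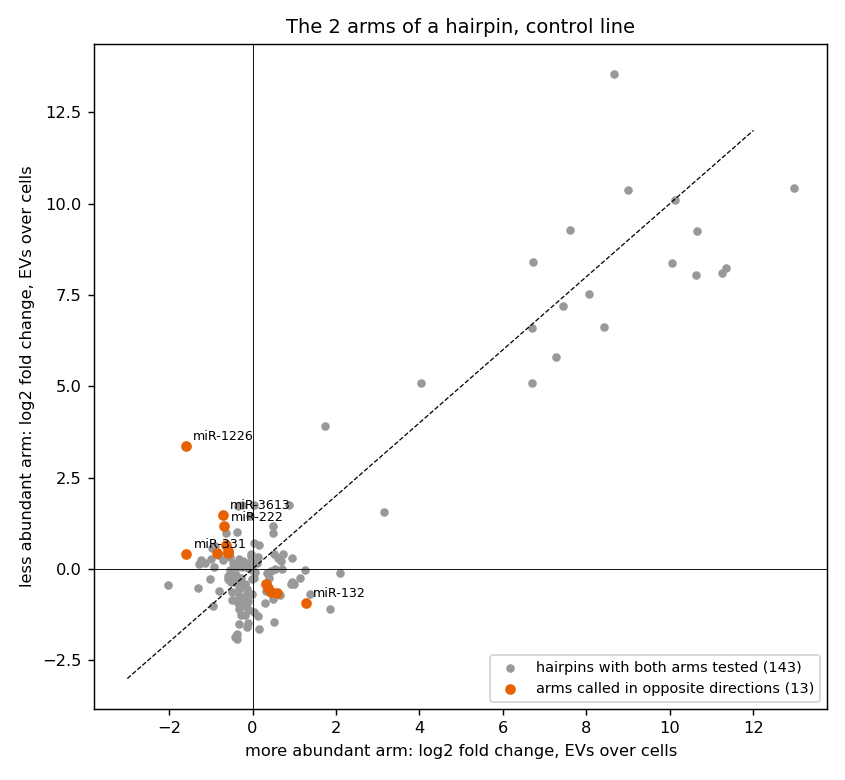
Log2 fold change of control EVs over control cells for the less abundant arm (vertical axis) and the more abundant arm (horizontal axis) of 143 hairpins, with the 13 pairs called in opposite directions in orange and the dashed line marking equal change. Most hairpins cluster near 0 on both axes and a group lies high on both, while miR-1226 and miR-222 lie in the upper left and miR-132 in the lower right.

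Median GC content was 45.5% in the miRNAs higher in EVs and 50% in the lower ones, against 47.8% in all 506 with a sequence, and GC content ranked against the log2 fold change at −0.056 (Spearman, across 506 miRNAs). Outside the 5 lists high in EVs the median was 50% in the higher ones too, and the rank correlation was 0.046 across 453 miRNAs. Of the higher miRNAs 16.6% were at least 23 bases long, against 31.1% of the lower ones and 22.5% of all. Of short motifs published for miRNA export into EVs, GGAG was present in 8.92% of higher, 6.72% of lower and 9.29% of all sequences, and GGCU in 9.55%, 15.1% and 12.3%. CGGGAG was in none and CAUGUG in 3 of the 506. The motifs were searched anywhere in the mature sequence, which is single-stranded, and these shares are descriptions with no test.

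The other lines allowed a test of whether the EV-to-cell change differed from that of the control line. RAB27A knockdown EVs held 164656 and 170366 counts, so that 1 count was worth 6.07 and 5.87 CPM there and differences in low miRNAs were not detectable at this depth. The EV-to-cell change was larger in the control line for 82 of 574 miRNAs (14.3%) and smaller for 25 (4.36%) against the knockdown line, 107 (18.6%) in all, and on total counts that split was 54 and 60. Against the miR-122 knockout line it was larger for 134 (23.3%) and smaller for 143 (24.9%), 277 (48.3%) in all. With an offset for GC content that split was 100 and 118 of 506. In the knockout line GC content ranked against the EV-to-cell log2 change at −0.372 (Spearman, across 506 miRNAs), against −0.056 in the control line. The part of GC content in these calls was not tested. The comparisons share the control libraries.

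The lists high in control EVs can be set beside the same lists in the other lines. The 14q32 entries summed to 1970 and 1859 CPM in control EVs, against 36.4 and 41.1 CPM in knockdown EVs and 18.4 and 8.53 CPM in knockout EVs, while the cells of the 3 lines ranged from 0.845 to 2.44 CPM. The stromal list summed to 3849 and 3934 CPM in control EVs, against 115 and 112 CPM in knockdown EVs and 54.6 and 40.4 CPM in knockout EVs, and the cells ranged from 12.2 to 22 CPM. The leukocyte list summed to 2013 and 1789 CPM in control EVs, against 12.1 to 35.2 CPM in knockdown EVs and 9.47 to 18.9 CPM in knockout EVs, and the cells ranged from 1.08 to 13.4 CPM. In these 3 lists the control EVs stood apart from the other EVs and all the cells. The EV-to-cell change was larger in the control line than in the knockout line for 8 of 8 stromal, 3 of 5 leukocyte and 13 of 38 14q32 entries. Over all tested miRNAs that share was 23.3%. Against the knockdown line it was larger for 4, 2 and 4 of them, beside 14.3% over all tested, so the 14q32 count there was below that share. Entries with few or no counts in the other lines could hardly pass, so a missing call is no sign of equal change.

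miR-122-5p had 331 and 251 CPM in control EVs, against 42.5 and 29.3 CPM in knockdown EVs and 1.07 and 0.947 CPM in knockout EVs. In cells it had 0.422 and 0.361 CPM in the control line, against 12.3 and 12.7 CPM in the knockdown line and no count in the knockout line. Its EV-to-cell change was larger in the control line than in the knockdown line by 8.26 on the log2 scale (SE 0.50, adjusted p = 3.85e-19). Against the knockout line the test could not decide (3.88, SE 16.3, adjusted p = 0.942). miR-122-5p had only 4 and 3 counts in knockout EVs and none in knockout cells. miR-4521 was lower in EVs than in cells in each line, with log2 changes of −6.10 in the control line, −3.83 in the knockdown line and −4.78 in the knockout line.

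**Figure D5:**
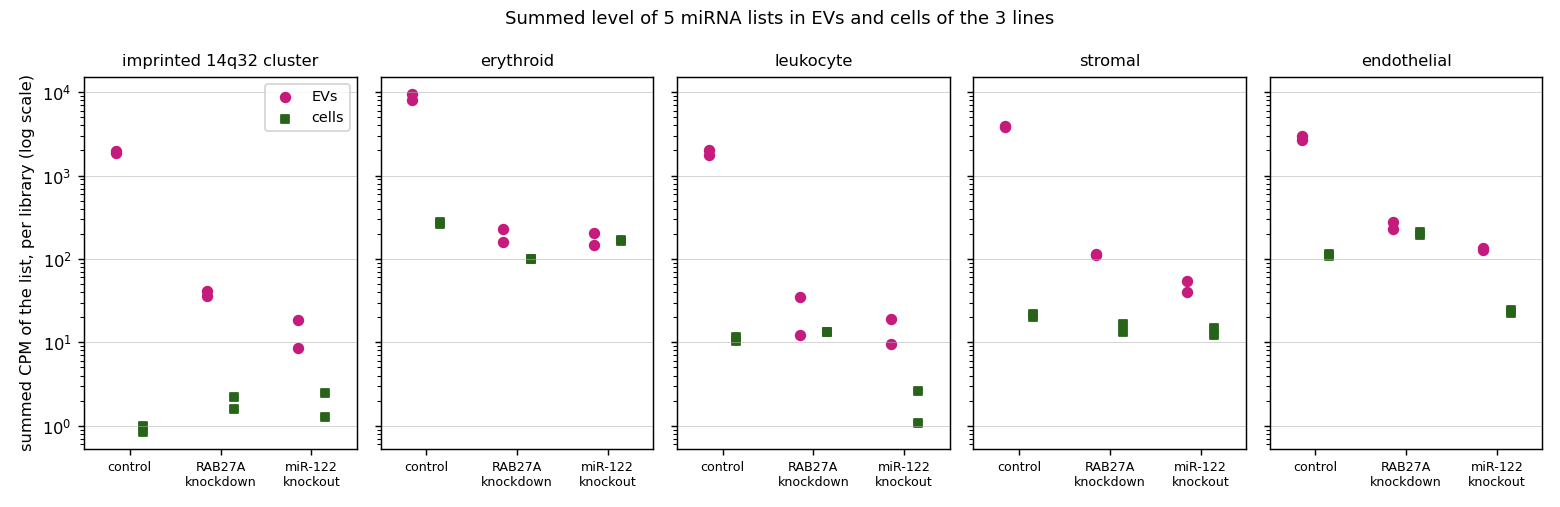
Summed CPM of 5 lists in each library (log scale), for EVs (circles) and cells (squares) of the control, RAB27A knockdown and miR-122 knockout lines, 2 libraries a group. The control EV circles stand above all other points in each panel, for example at 1970 and 1859 CPM for 14q32 against at most 41.1 CPM elsewhere.

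The summed levels of the 5 lists are themselves part of the EV values of the control line given above. The source of these miRNAs and the part of the lists in the count of higher miRNAs were not tested. As measured, miR-223-3p and miR-150-5p of the leukocyte list were at 0 in control cells. Both arms of miR-142, of the same list, were present there, with 67 and 62 counts for miR-142-5p and 56 and 65 for miR-142-3p. Without the 5 lists the fractions correlated at 0.945, against 0.857 with them. The lists were chosen with earlier results of these data known, so that rise is no support for any cause.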

How the data were processed

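The authors deposited a table of raw read counts for each mature miRNA. cutadapt, Bowtie and the genome build hg19 are listed, per the submitters' processing notes. The miRNA annotation, allowed mismatches and treatment of multiply matching reads were not given in the sources used here. In all, 8 sets of tested entries (21 miRNAs) carry identical counts in every library. Intervals and limits cover counting error only, since no source mentions molecular identifiers.

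Counts of all 12 libraries, 164656 to 11840597 per library, were fitted in 1 model with a mean for each of 6 groups (edgeR 4.0.16, limma 3.58.1, R 4.3.3). The fit used TMM factors, filterByExpr, which left 574 miRNAs, robust quasi-likelihood dispersion and Benjamini-Hochberg adjustment at 0.05. SE is the log2 fold change over the square root of F. Interactions tested the EV-to-cell change of the control line minus that of another line. Same-numbered EV and cell libraries did not deviate together (correlations −0.064 to 0.076), so no pairing was used. The scripts were tested on simulated data, where the difference from the knockdown line was the least reliable comparison. There 13.0% of its calls were false, above the rate of 0.05 aimed at. It recovered 30% of 2-fold and 50% of 4-fold changes. DESeq2 1.42.0 and other scalings, filters and subsets were alternatives.

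The members and lists were chosen with earlier results of these data known. Named miRNAs are the 15 largest changes per direction among calls without overlap at or above the median level, the 10 most abundant of each fraction, up to 4 of the most abundant per list, miR-122 arms and the 5 largest interactions per direction. Others were picked after their values were seen, and the text names a subset.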

Additional observations from a re-analysis of the deposited data

Results flagged for a closer look

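These miRNAs had an EV-to-cell log2 change in the control line that differed from that of another line in a test of the difference itself (edgeR's quasi-likelihood test of the interaction). Fitted values that involve a group with no count depend on the prior count and are no bounds. The 2 interactions share the control libraries.

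Against the RAB27A knockdown line, the control line's change was larger for the sequence shared by miR-199b-3p and miR-199a-3p (13.39 on the log2 scale), miR-26a-2-3p (9.25), miR-411-5p (8.93) and miR-122-5p (8.26). The call for miR-26a-2-3p was lost without either knockdown EV library (adjusted p = 0.19 and 0.17) and that for miR-411-5p without knockdown cell replicate 2 (4.26). The change was smaller in the control line for miR-4521 (−2.27), miR-3065-3p (−1.997), miR-365a-3p and miR-365b-3p, again a shared sequence (−1.43), and miR-34c-5p (−1.35). The call for miR-4521 missed the threshold under 13 alternatives, and that for miR-3065-3p without knockdown EV replicate 1 (−0.50) or knockdown cell replicate 2 (−1.54).

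Against the miR-122 knockout line, the change was larger in the control line for miR-144-3p (9.47), miR-127-3p (8.502), miR-150-5p (8.32), miR-451a (8.24) and miR-379-5p (7.58). Without knockout cell replicate 2 the calls for miR-144-3p (4.88), miR-150-5p (6.45) and miR-451a (6.21) were lost, as they were on thinned counts (7.81, 6.40 and 6.91). The calls for miR-144-3p and miR-451a were also lost without control cell replicate 1 (9.83 and 7.60). The change was smaller in the control line for miR-590-3p (−5.21), miR-335-3p (−5.09), miR-374b-3p (−4.26), miR-454-3p (−4.12) and miR-374a-3p (−3.80). In the control line itself those 5 miRNAs changed between EVs and cells by −1.65 to −0.08.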

How the results depend on the processing

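Each of the 308 calls shared with an alternative kept its sign. Counts of calls ran from 248 (replicate block with the GC offset) to 356 (no filter on low counts) over the alternatives that kept all libraries, and from 247 to 361 when 1 of the 12 libraries was left out. With a replicate block 300 miRNAs passed, 297 of them shared, and DESeq2 gave 297. Whether the replicate numbers pair EV and cell libraries cannot be told from the labels or from the low correlations of their deviations. Lower calls moved from 131 to 201 without a filter on low counts, which also shifted the median log2 fold change to −0.30, and ran from 87 (without control EV replicate 1) to 191 when 1 library was left out. Without the filter 7 named changes turned negative: let-7f-5p (−0.0466), miR-27b-3p (−0.35), miR-4286 (−0.0459), miR-30c-5p (−0.0810), miR-181a-5p (−0.000606), miR-181b-5p (−0.0266) and miR-130a-3p (−0.0197). Against the knockdown line the split of 82 larger and 25 smaller changes became 54 and 60 with total counts; the larger ones numbered 46 without a filter, and the smaller ones 49 with DESeq2, 16 with the replicate block and GC offset, and 11 to 34 when 1 library was left out. The causes were not tested. Depth limits low miRNAs: 97 tested miRNAs had under 20 counts in control cells and 125 in control EVs.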

Other observations

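Detection depended on depth. As deposited, 956 and 977 miRNAs had a count in the control EV libraries, against 1186 and 1189 in the control cell libraries. With every library thinned to the total of the shallower EV library, 956 and 965 were detected in EVs, against 868 and 843 in cells. At that depth 133 miRNAs had a count in both EV libraries and in neither cell library, and 43 had the opposite pattern, against 81 and 159 as deposited.

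The list of miR-221 and miR-222 and the cluster of miR-100, let-7a-2 and miR-125b-1 each held members of both directions. In that list 3 of 4 tested entries were lower in EVs, among them miR-221-5p with 2084 and 2241 CPM in EVs against 3419 and 3714 CPM in cells (log2 fold change −0.86, SE 0.13, edgeR), and miR-222-5p was higher. In the other cluster 4 of 6 entries were lower and let-7a-5p was higher by 0.52 (SE 0.12). Over all tested miRNAs 22.8% were lower and 30.8% higher.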
